A study of Mus musculus with 18 samples.

Results

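Exonic circRNAs (ecircRNAs) are closed loops of exon sequence that form in the nucleus when a downstream splice donor joins an upstream splice acceptor, a step called backsplicing. Most of them are found in the cytoplasm, so a given ecircRNA has to leave the nucleus, and Exportin 4 (XPO4) is one of the carriers that move macromolecules out. The ecircRNAs described here are the 472 that were listed with reads in both the nuclear and the cytoplasmic fraction of mouse NIH/3T3 cells, out of 16171 circRNA positions in the series. They were chosen by their nuclear and cytoplasmic reads, at least 1 library of 4 in each fraction, and by having both ends on annotated exon edges. Because those reads chose the members, the nuclear and cytoplasmic values below are descriptions without a test. Total RNA and mRNA-seq were not used in the choice and were tested.

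NIH/3T3 is an embryonic fibroblast line. There were 12 circRNA-seq libraries. Nuclear, cytoplasmic and total RNA were each sequenced in 2 replicates of wild-type (WT) cells and 2 of XPO4 knockout (KO) cells, which are 1 line made by CRISPR-Cas9, and the cells had no treatment. All were treated with RNase R, which digests linear RNA, and the values are counts of reads across backsplice junctions. The mRNA-seq data comprised 3 WT and 3 KO libraries of the same cells. Nothing in the labels says that replicates were separate cultures, so p-values measure the spread between these libraries, which may be technical.

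The nuclear libraries held few listed junction reads, 2189 to 4383 against 50341 to 81941 in the others. These are reads on the deposited circRNA lists and do not give the sequencing depth. Intervals and limits from counts cover counting error alone. Fibroblast markers summed to 2636 to 2829 FPKM in the 6 mRNA libraries, with 0 of 8 at 0. Epithelial markers summed to at most 0.128 FPKM, with 2 of 4 at 0, and endothelial markers to at most 0.110 FPKM. The 3 blood markers summed to 4.04 to 5.90 FPKM in WT and 2.42 to 3.41 FPKM in KO, with Hbb-bs at 0, and their part in the results was not tested. Xpo4 itself had 657, 614 and 685 mRNA reads in WT and 712, 504 and 687 in KO, a log2 fold change of 0.18 ± 0.11 (SE) with an edgeR adjusted p of 0.193. Its mRNA therefore did not separate the genotypes and does not check the labels. Inside each mRNA file the heading of the count column names the opposite genotype from the title, and titles were used here. With the headings, every mRNA direction below would turn, so WT and KO mRNA mean the libraries labelled so.

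The 472 ecircRNAs were 69.7% of the 677 exonic circRNAs listed in the nucleus and 4.89% of the 9648 listed in the cytoplasm. The exon-edge condition removed none, since all 472 positions shared by both lists passed it. Every listed circRNA had reads in at least 2 of the 4 libraries of a fraction. The members just inside the rule had 3 nuclear reads or 7 cytoplasmic reads summed over 4 libraries, and those just outside were in 1 of the lists alone. The median member had 11 nuclear, 47 cytoplasmic and 39 total RNA reads. A single host gene was assigned to 469 members, which came from 400 genes. Of these genes, 344 gave 1 member, 46 gave 2, 7 gave 3 and 3 gave 4. Members of one gene share exons and are not independent of each other.

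The backsplice junction is the sequence that tells a circle from its linear transcript. For the members that the results turn on, the last 15 bases of the downstream exon are printed in lower case, followed in capitals by the first 15 bases of the upstream exon to which they are joined, in RNA sense written as DNA from GRCm38. These are 6 of the 8 members with the most nuclear reads, followed by 2 circles of Glis3 and 1 of Rsrc1 that fell to 1 read in KO total RNA.
circNfix, chr8:84771784-84772315, minus strand: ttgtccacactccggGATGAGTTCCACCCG
circFgfr1, chr8:25555508-25555774, plus strand: ccgtcaatgtctcagCTCAGCCCTGGGGAG
circTcf25, chr8:123382527-123383443, plus strand: atatgtggagcacagTCTAATGCAAGTGGC
circPvt1, chr15:62107148-62107465, plus strand: agctccctctaaaatGTCTGATTTTCTTAA
circHipk3, chr2:104470749-104471847, minus strand: atctcgctactacagGTATGGCCTCACAAG
circAtxn2, chr5:121772667-121778105, plus strand: tggccccaacactagATGCTTTTACTGACT
circGlis3 of exon 4, chr19:28530873-28531986, minus strand: cccaacaagtgtacgGTCCGTTATTTTGCA
circGlis3 of exons 3 and 4, chr19:28530873-28540408, minus strand: cccaacaagtgtacgGGGCTCTTGGCTTTG
circRsrc1, chr3:66994517-66996590, plus strand: aagcagaaccagaagAAATGGGACGCCGGT
The Glis3 circles used the same donor and different acceptors, so they share the lower-case part.

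Among the 3 genes that gave 4 members each, Gas2 shows how such circles overlap. Gas2 encodes a protein that binds the cytoskeleton. All 4 circGas2 began at exon 2 of 8 and ended at exon 3, 4, 6 or 7, so the capitals are the same and the lower-case donor differs.
circGas2, exons 2 to 3, chr7:51887912-51897372, plus strand: aacaagcctgccaagGTGTTAGGAGTGGAT
circGas2, exons 2 to 4, chr7:51887912-51926544, plus strand: aatctgaaggcctggGTGTTAGGAGTGGAT
circGas2, exons 2 to 6, chr7:51887912-51943791, plus strand: ttactggatgatgcaGTGTTAGGAGTGGAT
circGas2, exons 2 to 7, chr7:51887912-51953301, plus strand: atcctcttcatcaggGTGTTAGGAGTGGAT
The circle of exons 2 to 3 had 129 and 53 reads in WT cytoplasm, against 39 and 87 in KO. The circle of exons 2 to 7 had 94 and 43 in WT, against 32 and 68 in KO. The KO values of both lay on either side of the lower WT value. In the nucleus, the circle of exons 2 to 4 had 1 and 1 reads in WT, against 7 and 6 in KO, and that of exons 2 to 6 had 0 and 3 against 7 and 5. Both of these KO pairs lay above the WT pairs. The circle of exons 2 to 3 had 2 and 0 nuclear reads in WT, against 3 and 3 in KO, also above. That of exons 2 to 7 had 1 and 2 in WT, against 5 and 2 in KO, which overlapped. Tasp1, which encodes a protease, also gave 4 members. Of the circTasp1, 3 began at exon 2 of 14 and 1 ran from exon 9 to exon 11.

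The members were short circles between long introns. A single annotated transcript held both ends of 462 members, and all 462 were flanked by AG before the acceptor and GT after the donor, which find_circ itself looks for. Their spliced length had a median of 405 nt (quartiles 319 and 601), over a range of 68 to 2663 nt. The 9040 ecircRNAs of the cytoplasm alone had a median of 499 nt, and the 204 of the nucleus alone had a median of 371 nt. Single-exon circles made up 54 of the 462 members, or 11.7%, against 3.72% of the cytoplasm-alone and 8.82% of the nucleus-alone ecircRNAs. Circles that started at exon 2, the first exon with a splice acceptor, were 39.8% of members against 29.0% and 25%. The intron upstream of a member had a median of 13489 bp, against 6721 bp and 5021 bp, and the one downstream 10434.5 bp, against 4922 bp and 4386 bp. Exon sequence was coding throughout in 345 members and had no coding base in 9. The median GC content was 49.1%, against 48.0% and 50.2%.

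**Figure D1:**
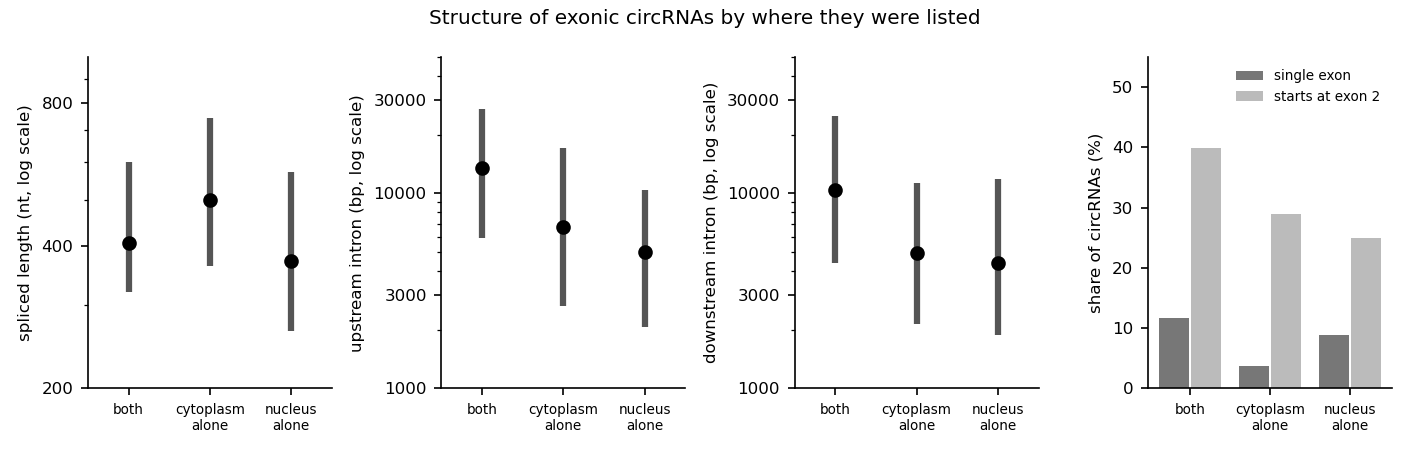
Median (point) and quartiles (bar) of spliced length, upstream intron and downstream intron on log axes, and the share of single-exon circles and of circles starting at exon 2, for ecircRNAs listed in both fractions, in the cytoplasm alone and in the nucleus alone. The median introns of the group in both fractions, 13489 bp and 10434.5 bp, are the longest of the 3 groups.

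Members were more abundant than the other ecircRNAs, and intron length moved with abundance. Members had reads in total RNA in 90.0% of cases, against 47.7% of the cytoplasm-alone and 33.2% of the nucleus-alone ecircRNAs. Among ecircRNAs with 50 or more total RNA reads, the upstream intron had a median of 17284 bp in 200 members and 15609 bp in 298 ecircRNAs of the cytoplasm alone. With 1 to 19 reads it was 10355 bp in 92 members and 8102 bp in 2488. Within these bands the difference was smaller than over all ecircRNAs. Spliced length did not move with abundance and differed in every band, 389 against 485 nt at 1 to 19 reads, 423 against 486 nt at 20 to 49 reads and 409 against 485 nt at 50 or more. Single-exon circles were 13.4% of members and 8.11% of the cytoplasm-alone group at 50 or more reads. The share that started at exon 2 was close in each band. It was 36.3% of members against 31.8% at 1 to 19 reads, 34.1% against 34.8% at 20 to 49 and 49.5% against 44.9% at 50 or more. The part of abundance in the remaining differences was not tested.

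In the nucleus, the members together had 1026 and 1123 junction reads in the WT libraries, against 1918 and 2069 in those of KO, and both KO values were above both WT values. The mean was 1074.5 ± 68.6 reads in WT and 1993.5 ± 106.8 in KO (SD, n = 2 each). The libraries themselves differed the same way in total reads. The members took 46.9% and 42.6% of the WT nuclear junction reads and 51.2% and 47.2% of the KO reads, so the shares did not overlap but lay close, and differed far less than the reads. Of the nuclear reads that fell on exonic circRNAs, the members took 75.9% and 76.7% in WT, against 71.6% and 73.6% in KO, lower in KO.

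In the cytoplasm, the members had 18222 and 15784 reads in WT, against 7411 and 15073 in KO. Both KO libraries were below both WT libraries, but KO replicate 2 lay close to the lower WT library and KO replicate 1 stood apart. The shares of cytoplasmic reads were 23.4% and 19.3% in WT, against 14.6% and 23.8% in KO, with KO values on both sides of WT. In total RNA, the members had 11647 and 9996 reads in WT, against 13437 and 7744 in KO, with KO again on both sides. Their share of total RNA reads was 19.1% ± 1.43 in WT and 19.2% ± 5.46 in KO (SD, n = 2 each), a difference of 0.0943 percentage points with a two-sided exact permutation p of 1. That design cannot give a p below 0.3333.

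**Figure D2:**
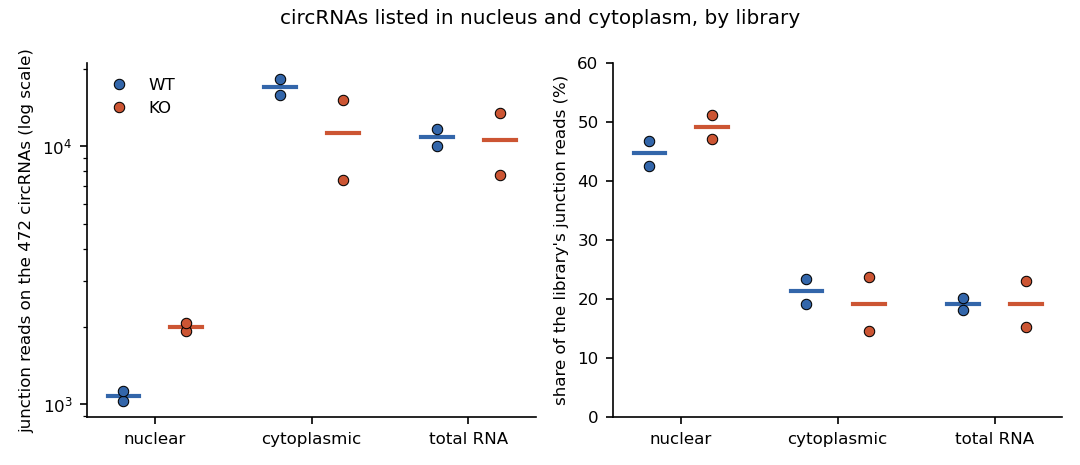
Junction reads on the 472 ecircRNAs (left, log axis) and their share of all junction reads of the library in percent (right, from 0), for nuclear, cytoplasmic and total RNA libraries. Each point is 1 library and each line the mean of 2. WT and KO separate in nuclear reads (1026 and 1123 against 1918 and 2069), and lie close in nuclear share (46.9% and 42.6% against 51.2% and 47.2%).

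The spread between KO replicates was wide for single members too. Among members with at least 50 reads over a pair of replicates, KO replicate 1 was higher in 13 of 114 in the cytoplasm and in 92 of 100 in total RNA. The replicates differed by more than 3 times the SD of sampling in 65.8% of these members in KO cytoplasm and 64.0% in KO total RNA, against 35.9% and 7.69% in WT. Each KO value in these fractions therefore rests on a pair of libraries that differ, and whether a pair agrees varied from member to member.

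For single members, both KO nuclear libraries were above both WT libraries in 252 of 472 and below them in 44. Among all 677 nuclear ecircRNAs the same held for 55.8% and 8.86%, close to the 53.4% and 9.32% of members. After each count was divided by the library total, 180 members were higher and 91 lower, against 40.3% and 18.6% of the 677. In the cytoplasm, both KO libraries were above both WT libraries in 82 members and below in 206, against 33.2% and 49.5% of all 9648. As nuclear and cytoplasmic reads chose the members, nothing is read from these counts. Of the members, 100 were higher in the KO nucleus and lower in the KO cytoplasm without overlap, and 7 showed the reverse. With 252 and 206 members on those sides, against 44 and 82, the first count would be larger without any link between fractions. Nothing is read from these either.

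The Nuc/Cyto ratio of the members as a set was 6.32 nuclear reads per 100 cytoplasmic reads in WT and 17.7 in KO. Over the 4 pairings of a nuclear with a cytoplasmic library it lay between 5.63 and 7.11 in WT and between 12.7 and 27.9 in KO. When each sum was first divided by its library total, the ratio was 1.82 to 2.43 in WT and 1.98 to 3.50 in KO, and the ranges overlapped. These totals are unlike, since all listed cytoplasmic reads were on exonic circRNAs and the nuclear reads were not. Exonic circRNAs held 1352 of 2189 and 1465 of 2635 nuclear reads in WT, against 2679 of 3743 and 2813 of 4383 in KO. The share of a member's reads that were nuclear had its median at 9.09% in WT, against 26.7% in KO, and was higher in KO for 372 members and lower for 100. It was over 50% in 34 members in WT and 101 in KO. The libraries' own nuclear totals were higher and their cytoplasmic totals lower in KO. These totals include the members' own reads, so library yield and the amount of circRNA cannot be told apart here. With each sum divided by its library total first, the median share was 76.8% in WT and 83.7% in KO, higher in KO for 286 members and lower for 186. As the totals are unlike, this scaled share is not the part of a circle that was nuclear.

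Length is a property that has been linked to how circles leave the nucleus, so the members were split by spliced length. In the 227 members of up to 400 nt the ratio was 7.63 nuclear reads per 100 cytoplasmic reads in WT and 17.04 in KO. In the 173 of over 400 and up to 800 nt it was 4.66 and 16.7, and in the 62 longer ones it was 8.04 and 27.7. In KO the longest band was above the shortest in each of the 4 pairings of libraries, by 1.53 to 1.73 times, and above the middle band by 1.62 to 1.73 times. In WT it was 0.978 to 1.14 times the shortest band, above it in 3 of 4 pairings, and 1.54 to 1.96 times the middle one. The pairings share libraries. Across the 462 members with a length, the nuclear share had a Spearman rho with length of -0.11 in WT and -0.01 in KO, as a description over circles that share libraries. With total RNA reads the rho was -0.53 in WT and -0.71 in KO over the 472 members. The nuclear share holds cytoplasmic reads, which move with total RNA reads, in its denominator.

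Members are named here from the 20 with the most nuclear reads. The largest nuclear count belonged to circNfix, a circle of exon 2 of the gene for the transcription factor nuclear factor I X. It had 5 and 43 nuclear reads in WT, against 14 and 48 in KO, so the genotypes overlapped. circFgfr1, from exon 3 of the gene for a fibroblast growth factor receptor, had 29 and 21 nuclear reads in WT, against 16 and 12 in KO. It was lower in KO in both the nucleus and the cytoplasm, where it had 109 and 163 reads in WT, against 64 and 48 in KO. circTcf25 had 20 and 19 nuclear reads in WT, against 3 and 27 in KO, which overlapped.

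circPvt1, the circle of exon 2 of the long noncoding RNA gene Pvt1, had 1 and 14 nuclear reads in WT, against 10 and 28 in KO. circHipk3, from exon 2 of a protein kinase gene, is among the best known ecircRNAs. It had 12 and 13 nuclear reads in WT, against 8 and 8 in KO, lower in KO. Its cytoplasmic reads were 137 and 132 in WT, against 14 and 98 in KO, also lower in KO, and its total RNA reads, 161 and 90 in WT against 170 and 88 in KO, overlapped between genotypes. Of the 5 host genes of ecircRNAs imaged in these cells by the study, Hipk3 and Nfix each gave 1 member. Specc1 had 10 listed circRNAs and Wwc1 had 3, none of them in the nuclear list, and Adarb1 had none.

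circAtxn2 showed a wide nuclear gap. Atxn2 encodes an RNA-binding protein, and the circle of its exons 6 to 8 had 0 and 1 nuclear reads in WT, against 20 and 19 in KO. Its total RNA reads were 14 and 21 in WT, against 11 and 7 in KO, so the direction was the opposite there, and its cytoplasmic reads overlapped (12 and 28 against 6 and 47). circCped1 had 3 and 3 nuclear reads in WT, against 13 and 12 in KO, and 529 and 410 reads in WT cytoplasm, against 76 and 190 in KO. It was thus higher in the nucleus and lower in the cytoplasm of KO cells.

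circZfp516, from a zinc finger gene, had 10 and 6 nuclear reads in WT, against 16 and 15 in KO, higher in KO, and overlapped in the cytoplasm. circMed13l, from a Mediator subunit gene, had 11 and 11 in WT, against 6 and 5 in KO, lower in KO. circCacna1c, from the gene of a calcium channel subunit, had 10 and 8 nuclear reads in WT, against 3 and 8 in KO. Its cytoplasmic reads were 528 and 528 in WT, against 199 and 200 in KO, while its total RNA reads were 209 and 212 in WT, against 394 and 394 in KO. It was lower in the cytoplasm and higher in total RNA of KO cells. Its KO replicates were almost equal, unlike those of most members, whose median ratio of KO replicate 1 to replicate 2 was 2.16 in total RNA and 0.363 in the cytoplasm. For circNfix and circPvt1 the KO total RNA replicates were as close, and within 0.25 times the SD of sampling there lay 9 of 100 members. The reason for such agreement was not tested. Also among the 20 were circSetbp1, circTulp4, circKat6b, circHnrnpll, circAsb3, circDnajc5, circH6pd, circKansl1 and a circle on chromosome 1 with no single host gene. Kat6b and Kansl1 encode parts of histone acetyltransferase complexes and Hnrnpll an RNA-binding protein.

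**Figure D3:**
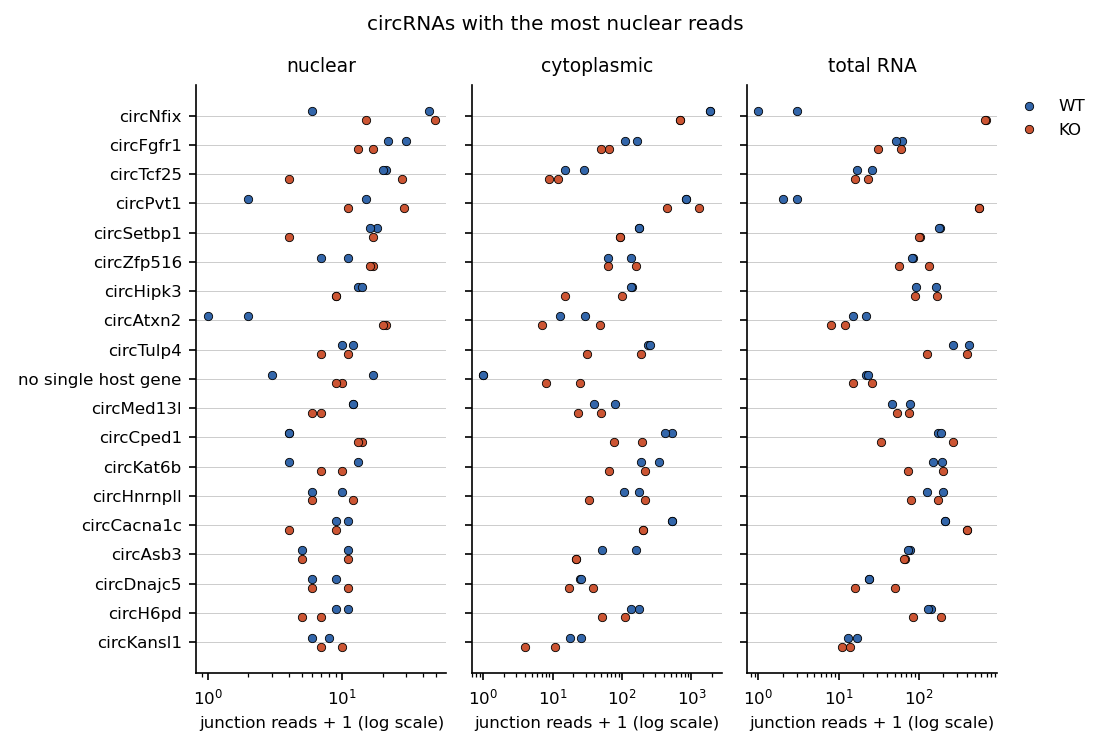
Junction reads plus 1 (log axis) of named members among the 20 with the most nuclear reads, in each nuclear, cytoplasmic and total RNA library, 2 points for WT and 2 for KO. circAtxn2 has 0 and 1 nuclear reads in WT, against 20 and 19 in KO, and circNfix and circPvt1 have at most 2 reads in each WT total RNA library.

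In total RNA, which took no part in the choice, no member passed the edgeR test of a difference between genotypes with TMM scaling, and the count depended on the scaling and on the WT libraries. Of the 413 members with at least 10 reads over the 4 libraries, edgeR called 0 at an adjusted p under 0.05, as it did for 0% of all 8903 circRNAs tested. At an unadjusted p under 0.05 there were 56 members, 31 higher and 25 lower in KO, which is 13.6% against 38.2% of all circRNAs. DESeq2 called 5 members, or 1.21%, against 0.0899% of all. When edgeR scaled each library to its total reads, it called 35 members, or 8.47%, against 22.5% of all. Without WT replicate 1 it called 15 of 387 members against 8.54% of all, and without WT replicate 2 it called 12 of 388 against 5.76%. The median log2 fold change of the members was -0.12 (quartiles -0.47 and 0.32), beside -0.08 (quartiles -1.30 and 1.23) over all circRNAs. A change of less than 1 on the log2 scale was seen in 77.7% of the members and in 39.6% of all. The median of the members was 0.53 without KO replicate 2 and -0.49 without WT replicate 2.

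The reads themselves, without a fit, gave the following counts. Both KO libraries were above both WT libraries in 70 of the 472 members and below in 92, or 14.8% and 19.5%, against 32.5% and 35.7% of all 10700 ecircRNAs of the total RNA lists. Between a WT and a KO total RNA library the Spearman rho of reads over the 425 members with total RNA reads was 0.68 to 0.79, and between replicates it was 0.89 in WT and 0.82 in KO. For the 4378 ecircRNAs listed in the cytoplasm and total RNA but not in the nucleus, the same values were 0.16 to 0.30 between genotypes and 0.70 and 0.71 between replicates. With at least 20 total RNA reads, rho between genotypes was 0.62 to 0.76 over 333 members and 0.05 to 0.36 over 1890 of the others. These correlations are descriptions over circles counted in the same libraries. In the cytoplasm, where reads chose the members, rho between genotypes was 0.53 to 0.65, against -0.28 to -0.18 in the cytoplasm-alone ecircRNAs. In the nucleus, where reads also chose the members, rho between genotypes was -0.0774 to -0.00257 over the 472 members. Between nuclear replicates it was 0.46 in WT and 0.32 in KO.

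The members with the smallest p in total RNA were circles that were nearly missing in one genotype. circPvt1 had 1 and 2 reads in WT, against 566 and 569 in KO, a log2 fold change of 8.49 ± 0.93 (SE) with an edgeR adjusted p of 0.0580. From the summed reads over library totals, this is a ratio of 394, with an exact 95% counting interval of 134 to 1912. circNfix had 2 and 0 reads in WT, against 681 and 677 in KO, a ratio of 706 with an interval of 195 to 5839 and the same adjusted p of 0.0580. In the cytoplasm the same circles were abundant in WT, with 834 and 838 reads for circPvt1 and 1837 and 1871 for circNfix. The WT total RNA and cytoplasmic libraries therefore gave opposite accounts of these members.

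The other 3 were lower in KO. circGlis3 of exon 4, from the gene for a zinc finger transcription factor, had 103 and 85 reads in WT, against 1 and 0 in KO, a ratio of WT to KO of 181 with an interval of 32.0 to 7175. circGlis3 of exons 3 and 4 had 57 and 66 reads in WT, against 0 and 1 in KO. circRsrc1, from the gene for an arginine and serine rich protein linked to splicing, had 91 and 79 in WT, against 0 and 1 in KO. In KO cytoplasm these had 33 and 34, 36 and 39, and 78 and 64 reads, so they too were present in the fraction and nearly missing in total RNA. For all 5 the edgeR adjusted p was 0.0580, above the threshold, while DESeq2, and edgeR with library-total scaling, called all 5.

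Few members were nearly missing in total RNA while present in the cytoplasm. Without overlap, 30 members were higher in KO total RNA and lower in KO cytoplasm, and 19 showed the reverse. No such count over all ecircRNAs stands beside these, and nothing is read from them. Of the 145 members with at least 50 WT cytoplasmic reads, 3 had at most 3 WT total RNA reads, among them circNfix and circPvt1. Of the 114 with at least 50 KO cytoplasmic reads, 4 had at most 3 in KO total RNA, among them circRsrc1 and both circGlis3 circles. No member with at least 50 total RNA reads had at most 3 in the cytoplasm of the same genotype, of 117 in WT and 100 in KO. circBnc2 lay just outside these limits, with 220 and 183 WT total RNA reads and 2 and 2 in WT cytoplasm. In KO it had 44 and 43 in total RNA and 139 and 256 in the cytoplasm. Over the 472 members, rho between cytoplasmic and total RNA reads was 0.65 to 0.74 in WT and 0.62 to 0.76 in KO, and between nuclear and cytoplasmic reads it was 0.12 to 0.22 and 0.13 to 0.17. The limits of 50 and 3 reads were chosen after the values were seen.

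**Figure D4:**
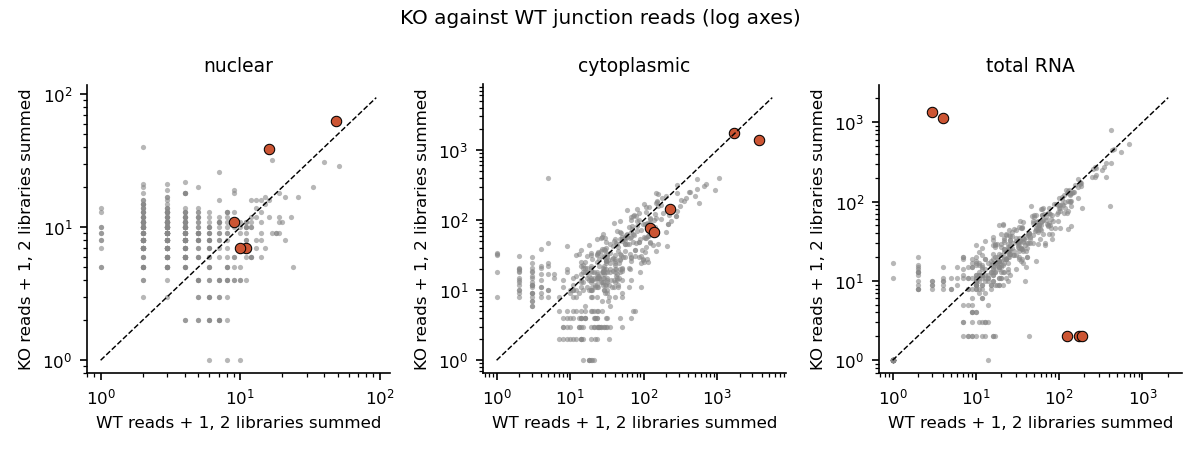
Summed KO reads against summed WT reads, each plus 1, of the 472 members in nuclear, cytoplasmic and total RNA libraries (log axes). The dashed line marks equal reads. The 5 members with the smallest total RNA p (large points) lie nearer the line in the cytoplasm than in total RNA, with 3 and 2 WT reads for circPvt1 and circNfix and 1 KO read for each of the others.

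In total RNA, 47 members were not listed at all. Those with the most cytoplasmic reads included circMyo1a, circPakap, circFbxw8 and circAsxl1. circMyo1a had 17 and 17 reads in WT cytoplasm, against 3 and 2 in KO, and circPakap 11 and 23 against 1 and 1. circAsxl1, from a Polycomb-associated gene, had 0 and 1 nuclear reads in WT, against 5 and 5 in KO. The lists hold circRNAs above a minimum, so an unlisted circle is not shown to be absent.

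Single-exon circles carried a share of member reads that differed between fractions. The 54 single-exon members held 19.7% and 21.5% of WT member reads in the nucleus and 12.9% and 15.8% in KO, without overlap. In total RNA they held 13.7% and 13.0% in WT, against 20.7% and 27.3% in KO. That difference rested on circNfix and circPvt1, both single-exon circles, which made up 9.28% and 16.1% of all member reads in KO total RNA and 0.0258% and 0.0200% in WT. Without these 2 circles the total RNA share was 13.6% and 13.0% in WT, against 12.6% and 13.3% in KO, which overlapped. The nuclear share without them was 19.2% and 17.4% in WT, against 11.8% and 12.6% in KO, still without overlap. In the cytoplasm the single-exon share was 26.4% and 27.9% in WT, against 27.3% and 23.3% in KO, which overlapped. The introns around single-exon members were long, with medians of 21500.5 bp upstream and 24050.5 bp downstream, against 12790 bp and 9721.5 bp for members of several exons.

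The host genes were expressed at levels near those of other circRNA hosts. Of the 400, 381 were tested in the mRNA-seq fit. Without the filter on low counts, 382 were tested. Most of the others therefore had no reads under their gene identifier, and their level is not known. The 381 had a median of 9.11 FPKM, beside 8.52 FPKM for 3165 tested hosts of cytoplasm-alone circRNAs and 5.95 FPKM over all genes tested. edgeR called 98 hosts higher and 123 lower in KO, or 221 of 381, against 25.1% higher and 23.6% lower of all 14688 genes. Their median log2 fold change was -0.05. Reads from a circle are counted to its host gene in these libraries, which had no RNase R step stated for them. In bulk RNA, fewer cells that express a gene and less RNA per cell cannot be told apart.

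Gas2 was the host with the smallest p. It had 657, 745 and 849 mRNA reads in WT and 2203, 2311 and 2122 in KO, a log2 fold change of 1.78 ± 0.07 (SE) with an adjusted p of 2.99e-10. In total RNA its circle of exons 2 to 3 had 94 and 74 reads in WT, against 89 and 22 in KO, a log2 fold change of -0.58 ± 0.70, and none of its 4 circles was called. Rab3ip, which encodes an activator of Rab8, rose by 1.71 ± 0.08, Ust, a sulfotransferase gene, by 1.66 ± 0.09 and Efemp1, an extracellular matrix gene, by 1.06 ± 0.06. Adamts7, which encodes a matrix protease, fell by 1.55 on the log2 scale (SE 0.09).

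For the members with the largest total RNA changes, the host mRNA moved less. Nfix mRNA had 8446, 7776 and 8982 reads in WT, against 7518, 6943 and 7699 in KO, a log2 fold change of 0.04 ± 0.06 that was not called. Pvt1 fell by 0.66 on the log2 scale (SE 0.08), while its circle was higher in KO total RNA. Glis3 mRNA had a log2 fold change of -0.20 ± 0.11 and was not called. Rsrc1 rose by 0.53 ± 0.07, while its circle was nearly missing in KO. Hipk3 mRNA had -0.15 ± 0.08 and Atxn2 0.07 ± 0.08, neither called. Fgfr1 rose by 0.45 ± 0.05 and Cped1 by 1.43 ± 0.09. Over 390 members with both values, rho between the circle's and the host's log2 fold change was -0.01, as a description.

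Host genes were also grouped by function in 7 lists. Chromatin and histone modification gave 8 tested hosts with 13 members, and 7 of the 8 fell and 0 rose. Kmt2a, a histone methyltransferase, fell by 0.53 on the log2 scale (SE 0.12), Asxl2 by 0.52 (SE 0.11), Asxl1 by 0.44 (SE 0.06) and the acetyltransferase gene Crebbp by 0.43 (SE 0.08). Of all 40 tested genes on that list, 29 fell and 1 rose, with a median of -0.31. The 13 circles of these hosts had 836 total RNA reads in WT and 846 in KO.

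Each list is short and does not hold every host gene of its kind. The 35 genes listed as transcription factors and cofactors included 7 hosts, of which 0 rose and 2 fell, Foxo3 by 0.66 on the log2 scale (SE 0.06) and Med13l by 0.47 (SE 0.11). The median of all 35 was -0.04, with 8 up and 7 down. Thrb, a host that encodes a thyroid hormone receptor and is on no list, rose by 2.02 ± 0.14 and was picked after its value was seen. Protein kinases and phosphatases gave 7 hosts with 3 up and 1 down. Stk3, a Hippo pathway kinase, rose by 0.70 ± 0.06, the myosin phosphatase subunit Ppp1r12a by 0.43 ± 0.07 and Rock1, a kinase of actomyosin contraction, by 0.31 ± 0.08. Prkce fell by 0.29 on the log2 scale (SE 0.10), a call that was lost with DESeq2 at -0.29, without KO replicate 1 at -0.26, without KO replicate 3 at -0.28 and without WT replicate 1 at -0.18. Of the 33 on that list 10 rose and 8 fell.

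RNA binding and splicing gave 7 hosts with 2 up and 3 down. Mbnl1, a splicing regulator, rose by 0.47 ± 0.05, and the microRNA effectors Tnrc6b and Tnrc6a fell by 0.53 (SE 0.10) and 0.38 (SE 0.08) on the log2 scale. Of the 30 tested on that list 3 rose and 14 fell. Membrane traffic and small GTPase regulation gave 8 hosts with 2 up, Arhgap10 by 0.43 ± 0.07 and Rapgef2 by 0.31 ± 0.08, and 3 down, with Vps13b the furthest at -0.47 ± 0.11. Of all 31 tested there, 6 rose and 7 fell. Cytoskeleton, adhesion and extracellular matrix gave 4 hosts, with Wwc2 up by 0.57 ± 0.07 and Myo10 down by 0.27 on the log2 scale (SE 0.07), and 13 of its 36 genes rose and 10 fell. Ubiquitin ligases and deubiquitinases gave 8 hosts, of which 1 rose, Cblb by 0.26 ± 0.08, while 4 of its 33 genes rose and 10 fell. The call on Cblb was lost without KO replicate 1 at 0.21, KO replicate 3 at 0.23, WT replicate 2 at 0.27 and WT replicate 3 at 0.24.

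**Figure D5:**
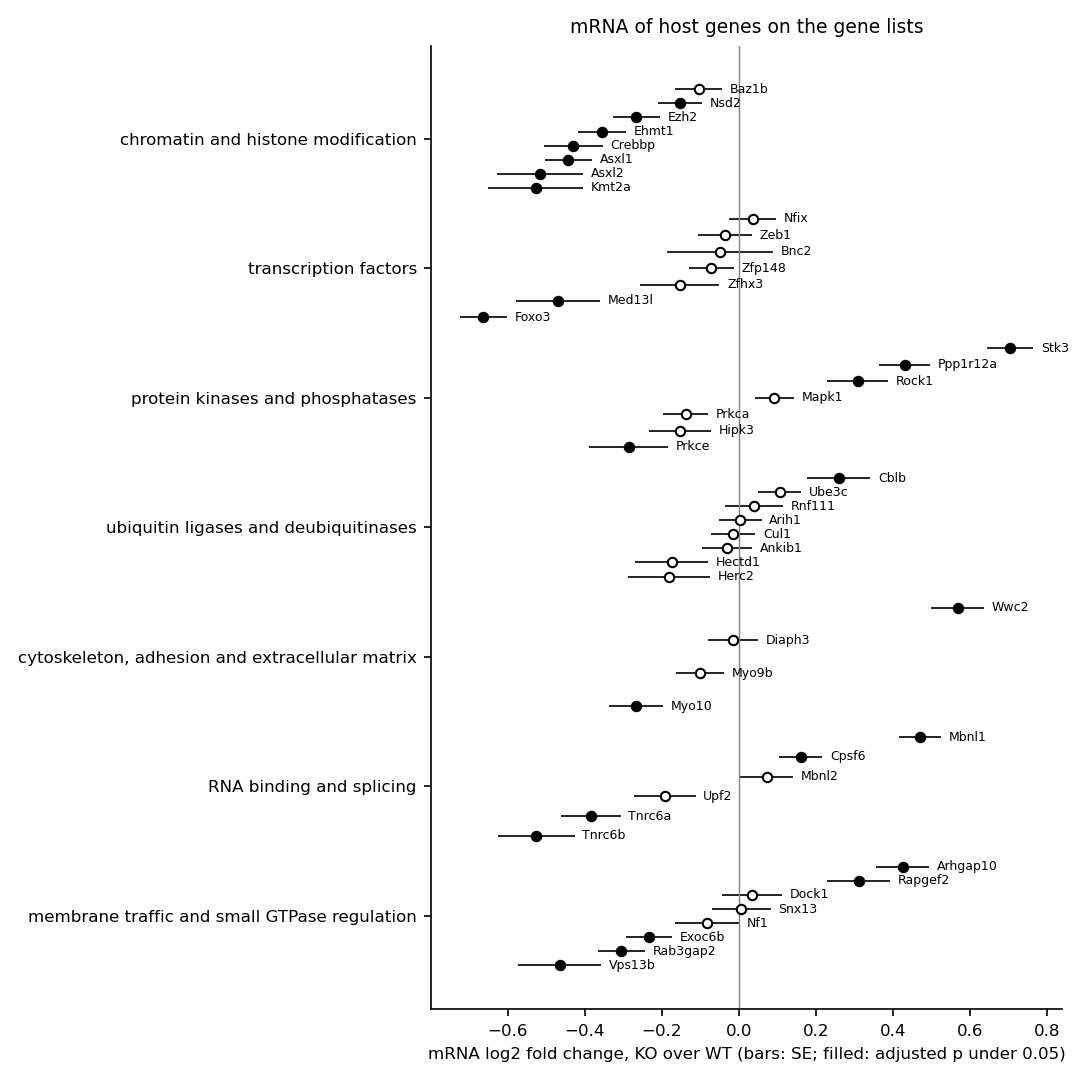
mRNA log2 fold change of KO over WT (x axis, bars are SE, n = 3 libraries of each genotype) for host genes of members on 7 lists. Filled points have an edgeR adjusted p under 0.05. The 8 chromatin hosts all lie below 0, and 7 of them are filled.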

How the data were processed

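NIH/3T3 WT and XPO4 KO cells were profiled by circRNA-seq (nuclear, cytoplasmic and total RNA, 2 replicates each) and mRNA-seq (3 replicates each). The authors ran find_circ on GRCm38 (mm10) and deposited, per library and circRNA, the count of backsplice reads, in whole numbers without normalization, after filters not given in the sources used here. For mRNA-seq the authors used HISAT2 and deposited the count per gene from featureCounts (version 2.0.0), without a strand option in the file headers, so overlapping genes can share reads.

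Members were positions with reads in at least 1 nuclear and 1 cytoplasmic library whose ends matched exon edges in the count files. Unlisted circRNAs were entered as 0. The members, gene lists and naming rule were chosen with earlier results of these data known. Hosts, exons and introns came from GENCODE on GRCm38 (basic transcripts first, then the longest circle) and sequence from the RefSeq copy of that build (pysam 0.24.0). Total RNA circRNAs with at least 10 summed reads, and genes passing filterByExpr, were tested over all features with edgeR (version 4.0.16, R 4.3.3; TMM, glmQLFit and glmQLFTest, Benjamini-Hochberg, threshold 0.05), with DESeq2 (version 1.42.0) as an alternative. FPKM was computed over all counted reads and the gene lengths in the files, and used for levels alone. The scripts were tested on simulated counts, with a fixed spread that was not taken from the data. There edgeR recovered 49.5% of 200 changes of 4-fold in total RNA circRNAs, with 3 false calls. In mRNA it recovered 38.5% of 200 changes of 2-fold, also with 3 false calls, so many changes of these sizes were missed. Total RNA libraries held 50341 to 58165 junction reads and mRNA libraries 16974062 to 22057323 reads. Spliced length was the sum of exons between both ends in 1 transcript.

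Named were the 20 members with the most nuclear reads, those of hosts imaged by the study, the 5 with the smallest total RNA p, the 5 with the most cytoplasmic reads among those not listed in total RNA, members of the 3 hosts with the most, and hosts with the smallest p or the largest called change on each list. Circles of unlike transcripts and several members of 1 gene were kept as separate positions. Alternatives covered other scalings, filters, DESeq2, a replicate block, leaving out libraries and other definitions of members and length. A host gene and its circles are counted in all sums but are not reported here.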

Additional observations from a re-analysis of the deposited data

Results flagged for a closer look

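Some results moved one way in one fraction and the other way in another, with both KO libraries on one side of both WT libraries each time. None of these differences between fractions was tested, and with 2 libraries a group they are values alone. The summed member reads were higher in the KO nucleus by 919 reads and differed by -5761 in the cytoplasm (KO minus WT means), while the libraries' own totals moved the same ways. circCped1 differed by 9.5 nuclear and -336.5 cytoplasmic reads, and circGas2 of exons 2 to 6 by 4.5 and -19.5. circAtxn2 differed by 19 nuclear and -8.5 total RNA reads. circNfix differed by -1170.5 cytoplasmic and 678 total RNA reads, and circCacna1c by -328.5 and 183.5. circTasp1 of exons 9 to 11 differed by 5.5 cytoplasmic and -7 total RNA reads.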

How the results depend on the processing

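The number of members called in total RNA was the least stable result, at 0 in the edgeR fit. It was 5 with DESeq2, 35 when scaled to library totals (8.47%, against 22.5% of all circRNAs tested), 0 without scaling or without the filter, and 38 with the replicate block (9.20%, against 23.1% of all). It lay between 0 and 15 when 1 library was left out, with 15 without WT replicate 1 and 12 without WT replicate 2, where the lone sample is assumed to vary like the other group. The cause was not tested. Deviations of same-numbered total RNA libraries correlated at 0.0214, and in mRNA-seq at 0.0542, 0.0289 and -0.081. With 2 total RNA libraries of each genotype this is a single independent value, which cannot exclude a shared batch. The host genes called in mRNA-seq were 213 with DESeq2, 223 with the replicate block and 187 to 231 when 1 library was left out.

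The KO minus WT difference in the members' share of total RNA reads was -2.15 percentage points without the 10 members with the most reads, and between -3.77 and 3.95 when 1 library was left out, so its direction rests on single libraries and on those members. The median spliced length was 490 nt over the union of exons, 394.5 nt for the shortest circle and 5791 bp as genomic span, by construction. The number of members was 446 with reads in both genotypes of each fraction and 472 under each other definition. Leaving out 1 library or asking for 2 reads could not change it, since every listed circRNA had reads in at least 2 libraries. Alternatives added after seeing the data gave 91 members below WT in the nucleus after division by the library total. Without KO replicate 1 of the cytoplasm 157 members were above WT there, and without KO replicate 2 of total RNA 189 were above WT, since 1 library then has to pass. Of 300 alternatives for 30 single named circRNAs and hosts, none reversed, 8 lost a call (Cblb and Prkce) and 23 gained one. The KO minus WT difference in the single-exon share of total RNA member reads turned to -0.361 percentage points without circNfix and circPvt1. Low counts limit the nuclear values most, where the median member had 11 reads over 4 libraries.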
